A study of Rattus norvegicus with 6 samples.

Results

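Phosphate transport in the kidney was examined through 9 genes. They were the sodium-phosphate cotransporters Slc34a1, Slc34a2, Slc34a3, Slc20a1 and Slc20a2, the hormone receptors Pth1r and Fgfr1, the co-receptor klotho (Kl) and the scaffold gene Slc9a3r1. The current symbol of Slc9a3r1 in the RefSeq gene table is Nherf1. Symbols of the array annotation were updated to that table, and every probe set mapped to a single one of these genes was taken. This gave 14 of the 31042 probe sets tested and 9 of 14217 genes. Slc34a1, Slc20a2, Slc9a3r1, Pth1r and Fgfr1 had 2 probe sets each and the other 4 genes had 1. No value was used to choose them, but they were proposed with results from these arrays known. Total kidney RNA came from 6 male rats, 1 Affymetrix rat expression array per animal. The 3 controls were inbred Dahl salt-sensitive (S) rats, and the 3 others were congenic S.LEW(10)x12x2x3x5 rats, which carry a segment of chromosome 10 from the Lewis (LEW) strain on the S background. Animals of both groups shared a birth day, were weaned at 30 days, received low-salt chow (0.3% salt) and were 53 days old at sacrifice, and each cage held 1 rat of either strain. None of the rats was on a high-salt diet. Which rats shared a cage was not stated in the labels, so the main tests did not pair them.

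Filtered phosphate is recovered in the proximal tubule, where the type II cotransporters NaPi-IIa (Slc34a1) and NaPi-IIc (Slc34a3) carry it with sodium across the brush border. The scaffold NHERF1 holds NaPi-IIa and the parathyroid hormone (PTH) receptor at that membrane. PTH, through Pth1r, and the bone hormone FGF23, through FGF receptors paired with klotho, both lower phosphate recovery by reducing the amount of cotransporter in the brush border. The type III cotransporters PiT-1 (Slc20a1) and PiT-2 (Slc20a2) are expressed in many tissues.

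The clearest difference was in Slc34a3, whose probe set was 2.89-fold higher in the congenic kidney (95% interval 2.07 to 4.04). One probe set of Slc9a3r1 (2.29-fold) and one of Slc20a2 (1.58-fold) were also higher, but in both genes the brighter probe set did not pass. The other 11 probe sets did not pass, among them those of Slc34a1, Slc34a2, Slc20a1, Pth1r, Kl and Fgfr1. The 3 calls, all higher, are 21.4% of 14 probe sets, against 6.00% of all probe sets tested, 3.47% higher and 2.53% lower (limma, Benjamini-Hochberg adjusted p under 0.05 over 31042 probe sets). With each gene taken at its brightest probe set, Slc34a3 was the 1 gene of 9 that passed, against 4.79% of 14217 genes, 2.12% higher and 2.67% lower. At an unadjusted p under 0.05, 9 of the 14 passed, against 25.4% of all probe sets tested. The groups did not overlap at 10 of the 14 probe sets, against 31.2% of all probe sets tested. The median log2 change of the 14 was 0.19, against -0.02 for all probe sets. In S the SD was the larger at 9 of the 14, and the share over all probe sets was not counted.

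**Figure D1:**
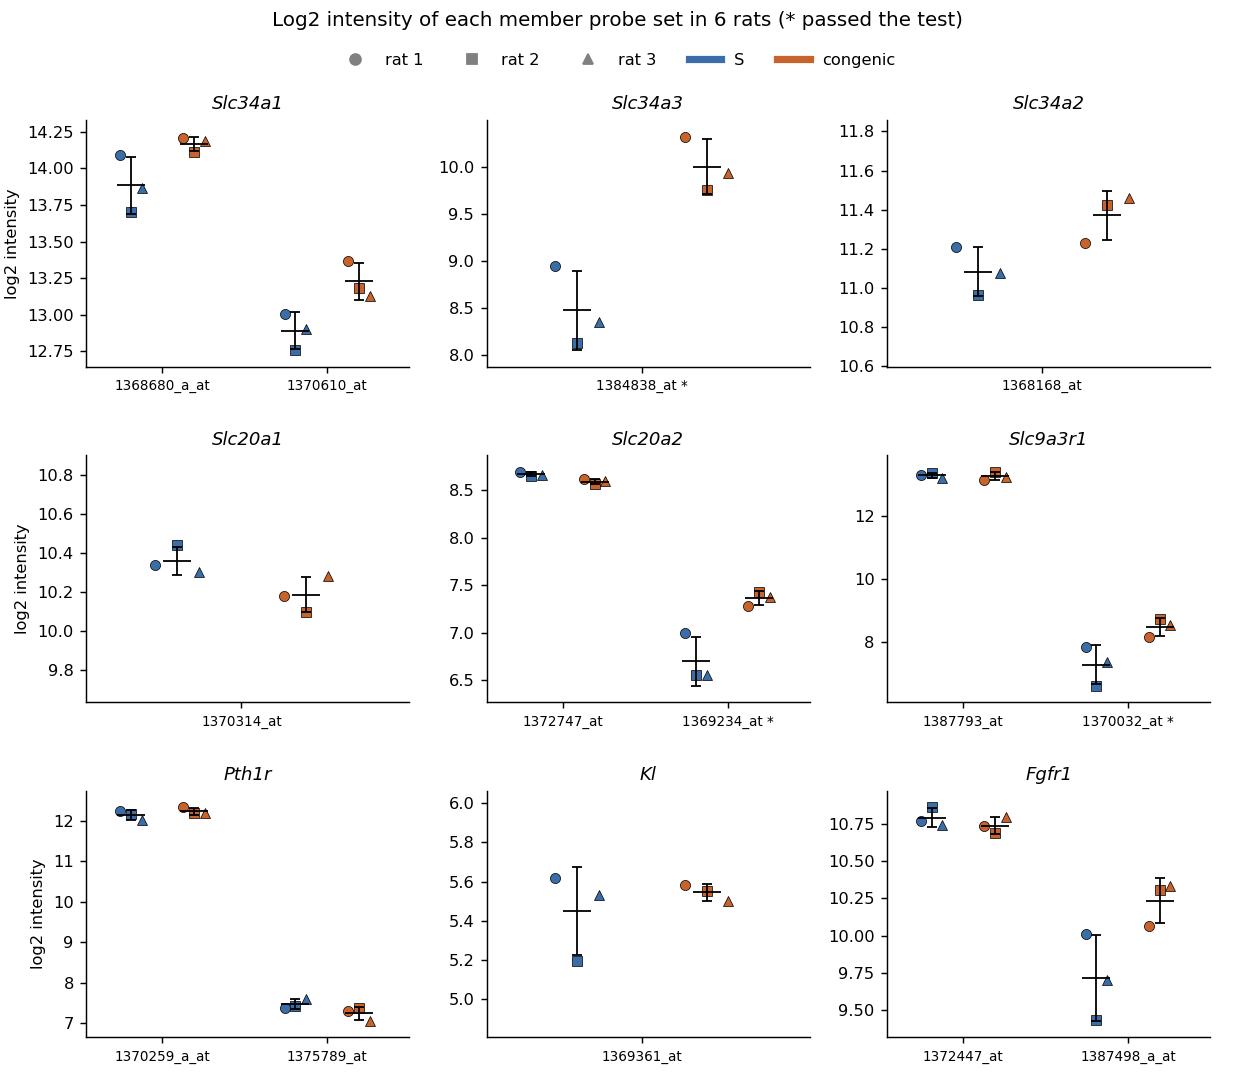
Log2 intensity (vertical axis) of the 14 probe sets in each rat, by gene; blue is S, orange is congenic, the marker shape gives the rat number, and bars are the group mean ± SD. Slc34a3 lies between 8.13 and 8.94 in S and between 9.75 and 10.32 in congenic rats, while at the brighter probe set of Slc9a3r1 the groups overlap; the vertical scales differ between panels.

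The arrays differed in ways that touch these values. The 3′ minus 5′ difference of the beta-actin and Gapdh control probe sets, which is larger in broken or incompletely labelled RNA, was 1.56, 2.10 and 1.70 (log2) in S rats 1, 2 and 3 and 1.26, 1.01 and 1.08 in congenic rats 1, 2 and 3. The groups did not overlap, and the change of -0.67 had an exact permutation p of 0.1 (two-sided); no smaller p can come from 3 rats against 3. S rat 2, with the highest value, was also the lowest S rat at 9 of the 14 probe sets, and at all 9 S rat 1 was the highest, so the order within S was the reverse of that of the 3′ minus 5′ difference. The 9 were those of Slc34a3, Slc34a1 (both), Slc34a2, Slc20a2 (both), Kl and the dimmer ones of Slc9a3r1 and Fgfr1, which include all 3 that were called. Within the congenic group the dimmer probe sets of Slc20a2 and Slc9a3r1 also ran in the reverse order of that difference. There Slc34a3 ran in the same order as that difference. How many of all probe sets ran in these orders was not counted. S rat 2 stood apart at some markers of other nephron segments but not at all of them. The mean log2 level of the distal convoluted and connecting tubule list was 9.65, 7.73 and 9.15 in S rats 1, 2 and 3. That of the podocyte list was 9.53, 7.68 and 8.33. The thick ascending limb list (12.31, 12.21 and 12.27) and the collecting duct list (10.48, 10.12 and 10.31) differed less. In congenic rats the distal list lay at 9.45 to 9.56 and the podocyte list at 9.20 to 9.39. The distal tubule gene Calb1 lay at 9.38 in S rat 2 and at 13.51 and 12.73 in S rats 1 and 3. In the congenic group Calb1 lay at 13.46 to 13.52. S100g, of the same marker list, was not low in that rat (7.64, against 7.44 and 7.53 in S rats 1 and 3). Without S rat 2, 3 of the 14 were still called, where 3.12% of all probe sets were. Without S rat 3, congenic rat 2 or congenic rat 3, limma called 0 of the 14. Over all probe sets it called 0, 0 and 8. An unadjusted p under 0.05 was reached by 6, 8 and 6 of the 14, and by 6968, 5575 and 5359 of all 31042. Without S rat 1, 7 were called beside 15.3% of all probe sets, and without congenic rat 1, 1 was called beside 1.13%. With the 3′ minus 5′ difference as a model term 0 of the 14 were called by limma, as of all probe sets (0%). In that fit 1 of the 14 had an unadjusted p under 0.05, against 7.38% of all. Of the 14 changes, 9 shrank and 8 kept their sign, and the shares over all probe sets were not counted. The groups do not overlap in the 3′ minus 5′ difference, so this fit cannot tell it apart from strain. Marker lists of other cell types differed too: 3 of 8 fibroblast genes were higher in congenic rats, with mean log2 levels of 10.89 to 10.92 in S and 11.37 to 11.46 in the congenic group, as were 4 of 7 leukocyte genes, at 9.22 to 9.42 and 9.53 to 9.64. Of 7 adipocyte genes 1 was lower (Cidec, a lipid droplet gene, -0.61), with a list median of -0.56 and mean log2 levels of 9.09 to 9.70 in S and 8.65 to 9.10 in the congenic group. Of all genes 2.12% were called higher and 2.67% lower. Their part in the values of the 14 probe sets was not tested. The kidney markers Umod, Miox and Lrp2 were bright on every array, at 14.62 to 14.76, 14.49 to 14.56 and 13.51 to 13.67. The level of a transcript in whole-kidney RNA does not separate fewer cells of a type from less RNA per cell.

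Slc34a3 encodes NaPi-IIc, one of the brush-border cotransporters of the proximal tubule. Its probe set (1384838_at) was at 8.94, 8.13 and 8.35 (log2) in S rats 1, 2 and 3 and at 10.32, 9.75 and 9.93 in congenic rats 1, 2 and 3. Every congenic rat was above every S rat, and the gap between the groups was close to the whole spread within S. The log2 change was 1.53 ± 0.21 (SE; adjusted p = 0.0179, limma). It kept its call without S rat 2 (1.36, adjusted p = 0.0209), without S rat 1 (1.77, adjusted p = 0.000899) and without congenic rat 1 (1.37, adjusted p = 0.0429). The change was of like size but did not pass when S rat 3 was left out (1.47, adjusted p = 0.0849), nor without the second (1.66, adjusted p = 0.0874) or the third congenic rat (1.57, adjusted p = 0.102). With the 3′ minus 5′ difference as a term in the model it was 1.08 ± 0.43 (SE; adjusted p = 0.651, limma).

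Of 22 measured proximal tubule markers 7 were higher and 1 lower in congenic rats, beside 2.12% higher and 2.67% lower of all genes. Their mean log2 level was 11.40 to 11.84 in S and higher in all 3 congenic rats (at most 12.20), with a median change of 0.05. The glucose transporter gene Slc5a2 was among the 7 (1.67), as was the lactate transporter gene Slc5a12 (2.28), while the endocytic receptor gene Lrp2 (-0.09, adjusted p = 0.390) and the inositol oxygenase gene Miox (-0.01, adjusted p = 0.954) did not pass. What part the marker levels and the RNA measure have in the Slc34a3 difference was not tested. The fit with the 3′ minus 5′ term cannot tell that measure apart from strain, because the groups do not overlap in it. Across the 6 arrays the genes with the pattern most like that of Slc34a3 were Tango2 (Pearson r = 0.998, change 0.36), Slc5a12 (r = 0.997) and Spp2, a secreted phosphoprotein gene (r = 0.995, change 2.38). Tango2 was dim, with group means of 5.79 in S and 6.15 in congenic rats, near the lower quartile of the arrays (5.88 to 5.96). The points of each correlation fall into the 2 groups and share their arrays, so r describes a likeness over 6 values only.

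Slc34a1 encodes NaPi-IIa, the main phosphate cotransporter of the adult rodent proximal tubule. Its brighter probe set (1368680_a_at) was at 14.09, 13.70 and 13.86 in S rats 1, 2 and 3 and at 14.20, 14.11 and 14.19 in congenic rats, a change of 0.28 ± 0.10 (SE; 1.22-fold, adjusted p = 0.118, limma). The second (1370610_at) was at 13.01, 12.76 and 12.90 in S rats, and 13.37, 13.19 and 13.13 in the congenic rats, a change of 0.34 ± 0.09 (SE; 1.26-fold, adjusted p = 0.0629, limma). At both probe sets every congenic rat was above every S rat, but neither passed. The 95% intervals, 1.04 to 1.42-fold and 1.09 to 1.46-fold, lie below that of Slc34a3. Within each rat Slc34a3 minus Slc34a1 was -5.14, -5.57 and -5.52 in S rats, and -3.88, -4.36 and -4.25 in the congenic rats, so Slc34a3 changed by 1.25 more on the log2 scale than Slc34a1. The groups did not overlap in this difference (exact permutation p = 0.1, two-sided, the smallest possible, and adjusted p = 0.2 over 8 such differences). With the 3′ minus 5′ term the changes of Slc34a1 were -0.04 and 0.20.

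The start-site windows of these cotransporter genes are shown because Slc34a3 was called and Slc34a1 was not, and that of Slc9a3r1 because it had a called probe set. RefSeq's GRCr8 table held the window for 6 of the 9 genes, Slc34a1, Slc34a2, Slc34a3, Slc9a3r1, Pth1r and Kl; Slc20a1, Slc20a2 and Fgfr1 were not matched. Each window runs from 250 bases before to 50 after the annotated start, 5′ to 3′ on the gene's strand. Capitals mark exact matches, on either strand, to GTTAAT (the hexamer of sites for HNF1, a proximal tubule transcription factor), AGGTCA or AGTTCA (hexamers that nuclear receptors bind), TATAAA (the TATA box) and GGGCGG (the GC box); none of the matches shown overlaps another.
Slc34a3, chr3:28447948-28448247, minus strand: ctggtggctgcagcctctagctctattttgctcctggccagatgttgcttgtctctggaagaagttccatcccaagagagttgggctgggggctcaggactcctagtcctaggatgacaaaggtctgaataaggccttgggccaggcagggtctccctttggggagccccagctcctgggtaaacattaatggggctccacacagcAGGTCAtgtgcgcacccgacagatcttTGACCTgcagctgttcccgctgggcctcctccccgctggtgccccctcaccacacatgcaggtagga
Slc34a1, chr17:9238934-9239233, minus strand: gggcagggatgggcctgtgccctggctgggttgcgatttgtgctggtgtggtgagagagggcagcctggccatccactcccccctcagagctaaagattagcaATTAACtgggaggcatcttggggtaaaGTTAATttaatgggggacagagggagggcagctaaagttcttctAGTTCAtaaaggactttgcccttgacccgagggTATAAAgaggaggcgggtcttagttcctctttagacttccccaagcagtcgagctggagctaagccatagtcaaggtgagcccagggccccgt
Slc9a3r1, chr10:100901915-100902214, plus strand: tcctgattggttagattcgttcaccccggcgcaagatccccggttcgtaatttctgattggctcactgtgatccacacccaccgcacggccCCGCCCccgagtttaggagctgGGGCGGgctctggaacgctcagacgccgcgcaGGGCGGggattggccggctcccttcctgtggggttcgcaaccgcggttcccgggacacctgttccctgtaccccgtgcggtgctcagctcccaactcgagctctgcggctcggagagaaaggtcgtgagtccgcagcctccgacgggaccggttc
The Slc34a3 window held AGGTCA at position -44 and its reverse complement at -17, counted from the start site. The Slc34a1 window held GTTAAT at -120, its reverse complement at -147, AGTTCA at -76 and TATAAA at -43. The Slc9a3r1 window held 3 GC boxes, those of Kl and Pth1r 3 and 7, and that of Slc34a2 none of these motifs. Of 33469 windows of the same length, 7.45% held GTTAAT, 16.2% AGGTCA, 14.5% AGTTCA, 14.2% TATAAA and 33.1% GGGCGG on either strand. The Slc34a3 and Slc34a1 windows had 4 and 5 CpG sites, where the median window had 7. Of all windows 38.0% and 43.7% held that many or fewer. Those of Slc34a2, Slc9a3r1, Kl and Pth1r had 30, 30, 35 and 41, and 90.7% to 97.6% of windows held that many or fewer. These matches describe letters in the reference, and the S and LEW sequences were not analysed here.

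Slc34a2 encodes NaPi-IIb, the cotransporter best known from intestine and lung. Its probe set (1368168_at) was at 11.21, 10.96 and 11.07 in S rats 1, 2 and 3 and 11.23, 11.43 and 11.46 in congenic rats. S rat 1 and congenic rat 1 nearly met, and the change of 0.29 ± 0.09 (SE; 1.22-fold) did not pass (adjusted p = 0.0922, limma). It was -0.05 with the 3′ minus 5′ term.

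Among the type III cotransporters, Slc20a1 (1370314_at) was at 10.34, 10.44 and 10.30 in S rats, and 10.18, 10.10 and 10.28 in the congenic rats. All 3 congenic rats were below the S rats by a small margin, and the change of -0.17 ± 0.07 (SE; adjusted p = 0.188, limma) did not pass. The dimmer probe set of Slc20a2 (1369234_at) was at 7.0, 6.55 and 6.55 in S rats, and 7.28, 7.43 and 7.38 in the congenic rats. Its change of 0.66 ± 0.12 (SE; adjusted p = 0.0282, limma) passed, and without S rat 2 it was 0.59 (adjusted p = 0.0472). The call was lost without S rat 3 or any 1 congenic rat (adjusted p from 0.0610 to 0.134), and with the 3′ minus 5′ term the change was 0.24 (adjusted p = 0.885). The brighter probe set of the same gene (1372747_at) was at 8.69, 8.65 and 8.66 in S rats, and 8.62, 8.56 and 8.59 in the congenic rats, on the other side of 0 (-0.08 ± 0.06, SE, adjusted p = 0.477, limma). So the probe sets of Slc20a2 gave opposite signs, and the gene has no single direction here.

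Slc9a3r1 encodes NHERF1, a PDZ-domain scaffold of the brush border. Its brighter probe set (1387793_at) was at 13.29, 13.37 and 13.20 in S rats 1, 2 and 3 and 13.15, 13.39 and 13.24 in congenic rats. The groups overlapped, and the change of -0.02 ± 0.08 (SE; adjusted p = 0.902, limma) had a 95% interval of 0.865 to 1.12-fold. The dimmer probe set (1370032_at) was at 7.86, 6.64 and 7.38 in S rats, and 8.18, 8.73 and 8.55 in the congenic rats. It rose by 1.19 ± 0.27 (SE; adjusted p = 0.0437, limma), and by 0.86 without S rat 2 (adjusted p = 0.0445). Its call was lost without S rat 3 or any 1 congenic rat (adjusted p from 0.0725 to 0.165) and with robust eBayes (adjusted p = 0.0609), and with the 3′ minus 5′ term the change was -0.27 (adjusted p = 0.774). Slc9a3r1 is the only one of the 9 genes on chromosome 10, which carries the LEW segment; Slc34a3 and Slc20a1 are on chromosome 3 and Slc34a1 on chromosome 17. Where the LEW segment begins and ends was not stated in the labels.

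**Figure D2:**
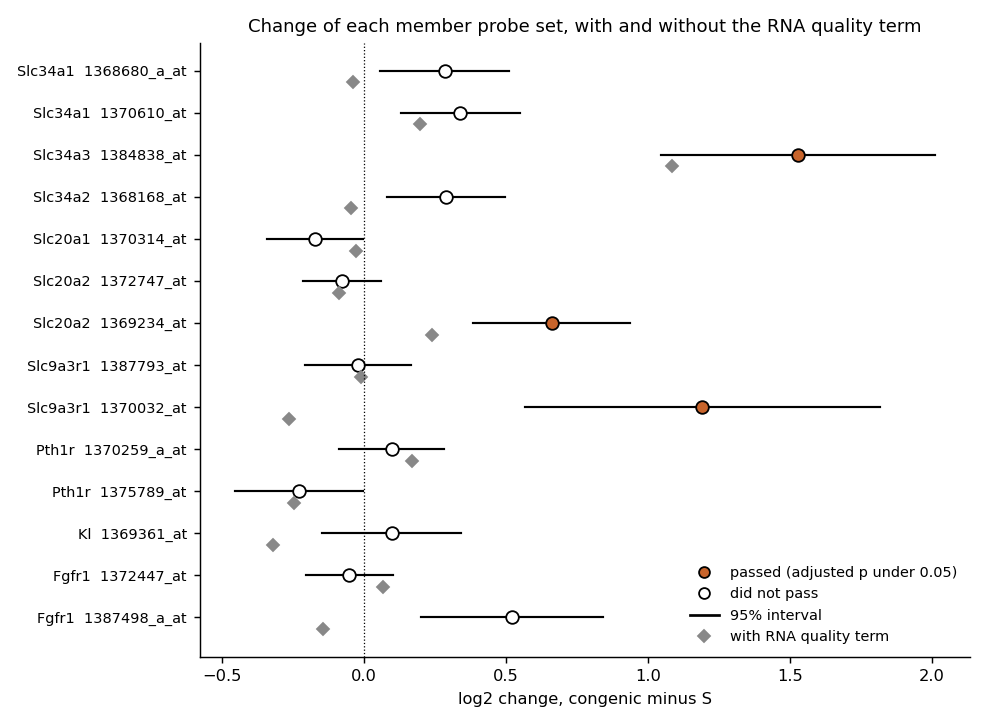
Log2 change, congenic minus S (horizontal axis), of the 14 probe sets with the 95% interval; filled circles passed, open circles did not, and grey diamonds are the changes once the 3′ minus 5′ difference is a model term. Slc34a3 has a diamond at 1.08, and the dimmer probe set of Slc9a3r1 moves from 1.19 to -0.27.

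None of the probe sets of the hormone receptors and klotho passed. Pth1r encodes the receptor for PTH and the related peptide PTHrP. Its brighter probe set (1370259_a_at) was at 12.24, 12.17 and 12.01 in S rats, and 12.33, 12.18 and 12.20 in the congenic rats, with overlap and a change of 0.10 ± 0.08 (SE; adjusted p = 0.517, limma). Its 95% interval ran from 0.94 to 1.22-fold. The dimmer one (1375789_at) was at 7.38, 7.42 and 7.61 in S rats, and 7.30, 7.36 and 7.06 in the congenic rats. There the congenic rats were lower without overlap, and the change of -0.23 ± 0.10 (SE; adjusted p = 0.192, limma) did not pass.

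Klotho, the co-receptor that lets FGF23 bind FGF receptors, is made mainly in the distal tubule of the kidney. Its probe set (1369361_at) was at 5.62, 5.19 and 5.53 in S rats, and 5.58, 5.55 and 5.50 in the congenic rats. All 6 values were below the lower quartile of their array (5.88 to 5.96), and no detection call was used to tell whether the probe set measures the transcript. The change was 0.10 ± 0.11 (SE; 0.90 to 1.27-fold, adjusted p = 0.640, limma), and -0.03 without S rat 2.

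Fgfr1 encodes an FGF receptor that forms the FGF23 receptor with klotho. Its brighter probe set (1372447_at) was at 10.77, 10.86 and 10.74 in S rats, and 10.74, 10.69 and 10.80 in the congenic rats, which overlapped (-0.05 ± 0.07, SE, 0.87 to 1.07-fold, adjusted p = 0.692, limma). The dimmer one (1387498_a_at) was at 10.01, 9.43 and 9.70 in S rats, and 10.06, 10.31 and 10.34 in the congenic rats, and its change of 0.52 ± 0.14 (SE; adjusted p = 0.0629, limma) did not pass. Its order among the S rats was that of the dimmer Slc9a3r1 probe set, and with the 3′ minus 5′ term the change was -0.14.

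Within each rat the dimmer probe set was set against the brighter one of the same gene, which asks whether both report the same change. For Slc9a3r1 this difference was -5.42, -6.73 and -5.82 in S rats, and -4.97, -4.66 and -4.69 in the congenic rats, a shift of 1.22. For Slc20a2 it shifted by 0.74 and for Fgfr1 by 0.57, in both with no overlap between groups. In each of these 3 genes the exact permutation p was 0.1 (two-sided), the smallest possible, and adjusted p = 0.2 over 8 differences. For Slc34a1 the shift was 0.06 (exact permutation p = 0.4), and for Pth1r -0.33 (exact permutation p = 0.2), both with overlap. The Pth1r minus Slc9a3r1 difference shifted by 0.12 at the brighter probe sets (exact permutation p = 0.6) and by -1.42 at the most variable ones, so it has no single direction. Kl minus Fgfr1 was also among the 8, but Kl lay too low on every array for the difference to be read. Of the 3 called probe sets, 2 were the dimmer of a pair and the third, that of Slc34a3, had no second probe set to set it against. Among the 6609 dimmer probe sets of all genes with several, 9.26% were called higher and 1.76% lower.

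**Figure D3:**
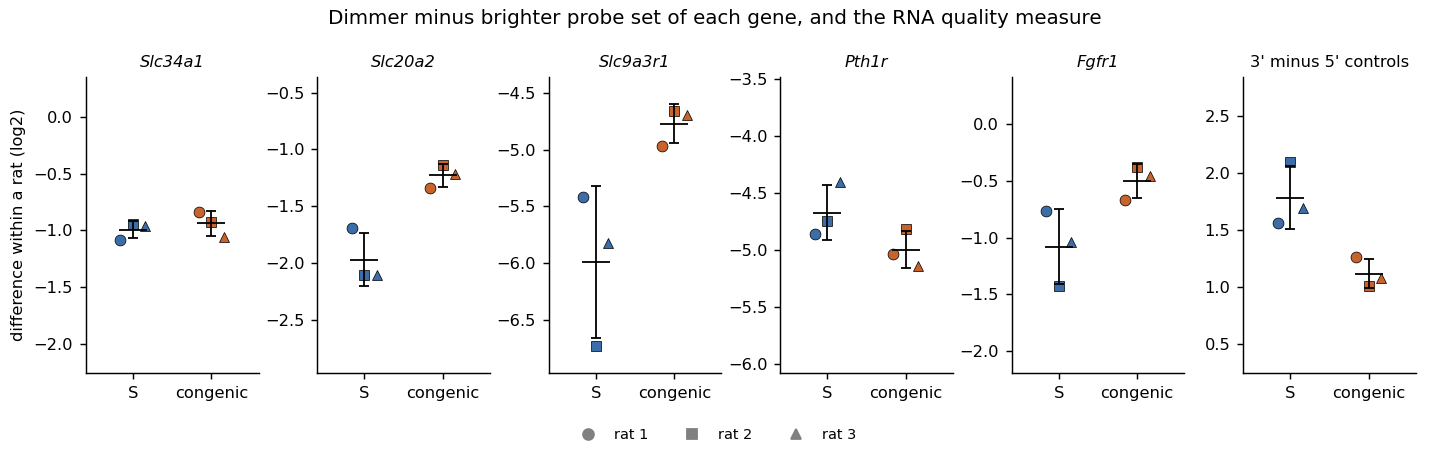
Dimmer minus brighter probe set within each rat (log2, vertical axis) for the 5 genes with a pair, and, at the right, the 3′ minus 5′ difference of the control probe sets; marker shapes give the rat number and bars the mean ± SD. Slc20a2, Slc9a3r1 and Fgfr1 are higher in all 3 congenic rats, where the control difference is lower, and Slc34a1 and Pth1r overlap; each panel spans the same range.

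By the same likeness measure, the dimmer Slc9a3r1 probe set was most like Mrpl37 (r = 0.999, change 0.54), Nans (r = 0.999, change 0.38) and Csnk1g3 (r = 0.998, change 0.67), none of which passed (adjusted p from 0.0506 to 0.0709). The dimmer Slc20a2 probe set was most like Selenot (r = 0.999, change 0.38, adjusted p = 0.0422, limma). Next were Capza2 (r = 0.999, change 0.17, adjusted p = 0.14) and Rab27a (r = 0.998, change 0.23, adjusted p = 0.0876), neither of which passed. Rab27a was dim, with group means of 4.84 in S and 5.06 in congenic rats, below the lower quartile of every array (5.88 to 5.96). Among the members, the dimmer probe sets of Slc9a3r1 and Fgfr1 were alike (r = 0.990), and Slc34a3 was closest to the second Slc34a1 probe set (r = 0.964). All of these describe 6 arrays in 2 groups.

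The rest of the phosphate pathway was followed through 5 lists with 99 measured genes, each at its brightest probe set. Of these, 2 were higher, 2 lower and 95 did not pass; the 4 calls are 4.04% of the 99, beside 4.79% of all genes. At an unadjusted p under 0.05, 29 passed, where 25.6% of all genes did. Without S rat 3, congenic rat 2 or congenic rat 3, 0 of the 99 were called by limma (25, 22 and 19 with an unadjusted p under 0.05). Of all 31042 probe sets 0, 0 and 8 were called in these fits, and 6968, 5575 and 5359 had an unadjusted p under 0.05. The median change of the 99 was -0.03, as it was for all genes.

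Of 14 other phosphate carriers and phosphate-sensing genes 1 was lower. Slc17a3, an organic anion and urate transporter of a family first described as phosphate transporters, was at 11.87, 12.05 and 11.99 in S rats, and 11.42, 11.42 and 11.43 in the congenic rats. It fell by 0.55 ± 0.07 on the log2 scale (SE; 1.46-fold, adjusted p = 0.0163, limma), the groups were apart, and it was at -0.39 with the 3′ minus 5′ term. The phosphate exporter gene Xpr1 was at -0.06 (adjusted p = 0.674), Slc17a1 at -0.09 (adjusted p = 0.484) and Tmem174, whose product binds NaPi-IIa, at -0.16 (adjusted p = 0.221). The list median was -0.03.

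None of 16 genes of the apical scaffold and of cotransporter trafficking passed (limma; median -0.02), and 2 had an unadjusted p under 0.05. The smallest p-values belonged to Pdzk1ip1, which encodes a small membrane partner of PDZK1 (0.16, adjusted p = 0.156), Ezr, which encodes the membrane-to-actin linker ezrin (0.19, adjusted p = 0.158), and Nherf4, a further PDZ scaffold gene (-0.21, adjusted p = 0.198). Pdzk1, whose product also binds NaPi-IIa, was at 0.09 (adjusted p = 0.395), and Nherf2 at -0.05 (adjusted p = 0.766). The dimmer Nherf2 probe set was at 0.54 (adjusted p = 0.0767, limma), with no overlap between groups, and did not pass.

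None of 24 genes of PTH ligands and receptor signalling passed (limma; median -0.06), and 9 had an unadjusted p under 0.05. Gnaq, a G protein subunit gene, was at 0.33 (adjusted p = 0.0696), the adenylyl cyclase gene Adcy3 at -0.42 (adjusted p = 0.0729) and Ramp1, an accessory protein gene of class B receptors, at 0.21 (adjusted p = 0.0911). Gnas, which encodes the stimulatory G protein downstream of Pth1r, was at 0.04 (adjusted p = 0.825).

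Of 27 genes of FGF23 and FGF receptor signalling 1 was higher, Adam10, a membrane protease that can shed klotho. Adam10 was at 7.89, 7.12 and 7.69 in S rats, and 8.53, 8.64 and 8.73 in the congenic rats, a change of 1.07 ± 0.17 (SE; 2.10-fold, adjusted p = 0.0224, limma). Its dimmer probe set also passed (0.50, adjusted p = 0.0369, limma). That probe set lay at 4.33 to 4.39 in S and 4.65 to 5.09 in congenic rats. These values are below the lower quartile of every array (5.88 to 5.96). With the 3′ minus 5′ term the brighter and dimmer probe sets were at 0.21 and 0.40. The other FGF receptor genes did not pass. Fgfr4 was at -0.28 (adjusted p = 0.0838), Fgfr2 at -0.15 (adjusted p = 0.273) and Fgfr3 at -0.15 (adjusted p = 0.410). The dimmer Fgfr3 probe set was at 0.41 (adjusted p = 0.0509, limma), with no overlap between groups, and did not pass. The list median was -0.01.

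Of 18 genes of vitamin D and other phosphate hormones 1 was higher and 1 lower. Rxra, the partner of the vitamin D receptor, was at 7.55, 7.37 and 7.76 in S rats, and 7.92, 8.06 and 7.98 in the congenic rats, a change of 0.43 ± 0.10 (SE; adjusted p = 0.0469, limma). Casr, the calcium-sensing receptor gene, was at 10.96, 11.14 and 10.92 in S rats, and 10.67, 10.50 and 10.58 in the congenic rats and fell by 0.43 ± 0.08 on the log2 scale (SE; adjusted p = 0.0312, limma). With the 3′ minus 5′ term Rxra was at 0.10 and Casr at -0.14. The vitamin D receptor gene Vdr was at 0.32 (adjusted p = 0.0503), and Cyp27b1, the enzyme that makes active vitamin D and is a target of PTH and FGF23, at -0.03 (adjusted p = 0.835). The list median was -0.08.

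Among the 57 dimmer probe sets of these genes 8 passed, all higher, and 7 of them belonged to genes whose brightest probe set did not, beside the 9.26% called higher of all dimmer probe sets. They were those of Ankh, Msn, Rdx, Ap2b1, Prkacb, Prkar2a and Fgf1. With the 3′ minus 5′ term Fgf1 went from 1.61 to -0.32 and Msn from 1.66 to -0.22. Ap2b1 went from 0.71 to -0.07, Rdx from 0.57 to 0.03 and Prkar2a from 0.45 to 0.27. Prkacb went from 0.63 to 0.52 and Ankh from 0.46 to 0.44. The Prkacb probe set lay at 5.05 to 5.82, below the lower quartile of every array (5.88 to 5.96).

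**Figure D4:**
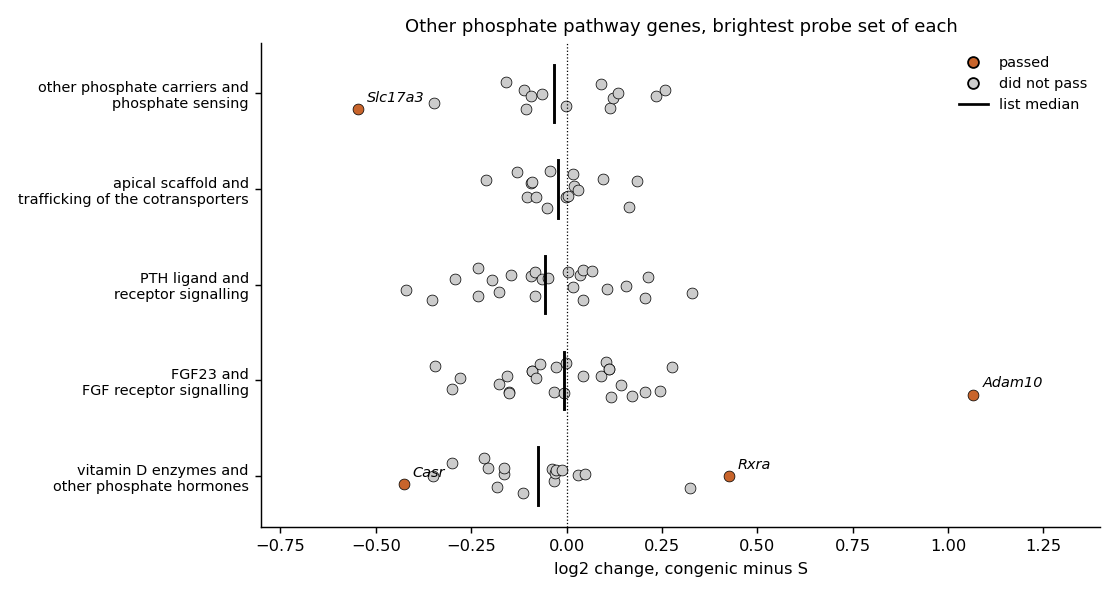
Log2 change, congenic minus S (horizontal axis), of 99 genes in the 5 lists, each point a gene at its brightest probe set; orange points passed and are named, and bars are list medians. Adam10 lies at 1.07, Slc17a3 at -0.55, and the list medians run from -0.08 to -0.01.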

How the data were processed

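Kidney RNA of 3 S and 3 congenic rats was measured, 1 array per rat. The authors deposited log2 probe set intensities, a unit judged from the values (3.76 to 15.1, array medians 7.47 to 7.50); how they were summarized and normalized is not given in the sources used here. No 2 arrays held identical values. Arrays have no read depth, so precision rests on 3 rats per group. Groups came from the sample titles.

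Of 31099 probe sets, 57 controls were left out. Names came from the platform annotation, updated by Entrez identifier to RefSeq's GRCr8 gene table; 20826 probe sets had 1 symbol, 436 several and 9780 were not listed. Groups were compared on all 31042 with limma 3.58.1 in R 4.3.3 (lmFit, eBayes, two-sided, adjusted p under 0.05; 4 residual degrees of freedom, 8.49 with the prior). Single values used exact permutation tests. Figures used matplotlib 3.10.9.

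The members and lists were chosen with earlier results of these data known. Named were every member probe set, called list genes (the 3 with the smallest p where none was), the 3 genes most correlated with each called member, and Slc5a2, Slc5a12, Lrp2, Miox and Calb1. Umod, S100g, Xpr1, Slc17a1, Tmem174, Pdzk1, Nherf2, Gnas, Fgfr2, Fgfr3, Fgfr4, Vdr, Cyp27b1 and the genes of dimmer probe sets were chosen after their values were seen. Tested on simulated data (31042 probe sets), the fit recovered 47.8% of 67 log2 changes of 0.5, 92.5% of 67 of 1 and 100% of 66 of 2. It made 7 false calls. The simulated noise was independent between probe sets, with the same SD in both groups and no 3′ minus 5′ difference between them. These rates therefore need not hold for the real arrays.

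The tests were repeated with the 3′ minus 5′ difference as a term, without each rat, with 1 probe set per gene, with the rat number as a block, with array weights, robust or trended eBayes or no moderation, after quantile normalization or median centring, and above percentile 40 of mean intensity.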

Additional observations from a re-analysis of the deposited data

How the results depend on the processing

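Quantile normalization, median centring and the filter on dim probe sets left the count of called member probe sets at 3; the filter removed Kl. The count was 5 with an intensity trend (8.58% of all probe sets called), 8 with array weights (19.6%), 2 with robust eBayes (6.17%) and 1 of 9 with 1 probe set per gene (4.68% of genes), where the called Slc20a2 and Slc9a3r1 probe sets are not tested. Limma called 0 with the 3′ minus 5′ term (1 below an unadjusted p of 0.05), and 0 passed the unmoderated test (7 below an unadjusted p of 0.05). Both settings also called 0 of all 31042 probe sets, with 2292 and 6166 below an unadjusted p of 0.05. Leaving out 1 rat at a time gave 0 to 7. S rat 1 omitted gave 7 (15.3% of all probe sets), S rat 2 gave 3 (3.12%) and congenic rat 1 gave 1 (1.13%). S rat 3, congenic rat 2 or congenic rat 3 omitted gave 0, beside 0, 0 and 8 of all 31042. Below an unadjusted p of 0.05 were 6, 8 and 6 of the 14, and 6968, 5575 and 5359 of all. The 4 called genes of the other lists became 7 with the trend, 23 with array weights, 0 unmoderated (29 below an unadjusted p of 0.05), 0 with the 3′ minus 5′ term (9 below), and 0 to 14 with 1 rat left out (14 for S rat 1, 3 for S rat 2, 1 for congenic rat 1; 0 for S rat 3, congenic rat 2 or 3, with 25, 22 and 19 below an unadjusted p of 0.05). The cause of these shifts was not tested. The shares or counts over all probe sets in the same settings are those given above.

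The rat numbers are not stated to pair animals or to mark cages. Deviations from the group means correlated at -0.01, -0.18 and -0.14 between same-numbered rats of the 2 groups. Between differently numbered rats they correlated at -0.25 to 0.38. These values cannot show which rats shared a cage. With the rat number as a replicate block 1 member probe set, that of Slc34a3, and 2 of the other pathway genes were called, beside 2.12% of all probe sets; the dimmer Slc20a2 (adjusted p = 0.0522) and Slc9a3r1 (adjusted p = 0.0760) probe sets lost their calls.

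Signs turned with the 3′ minus 5′ term for Slc34a1 1368680_a_at (-0.040), Slc34a2 (-0.046), Kl (-0.32), the dimmer Slc9a3r1 probe set (-0.27), and both Fgfr1 probe sets (0.067 brighter, -0.14 dimmer). The brighter Slc9a3r1 probe set turned with array weights (0.019) and ran from -0.088 to 0.031 with 1 rat omitted, above 0 on omitting S rat 2 (0.017) or congenic rat 1. Kl ran from -0.030, on omitting S rat 2, to 0.18. The Kl minus Fgfr1 shift ran from -0.0125, on omitting S rat 2, to 0.24, and was -0.42 at the most variable probe sets, where that of Pth1r minus Slc9a3r1 was -1.42. The Slc34a3 change stayed positive in all 16 alternatives (1.08 to 1.77) and was called in 11. With 3 rats per group, a change of 0.5 was recovered in 47.8% of simulated cases, whose noise was independent between probe sets.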
